A study of Mus musculus with 65 samples.

Results

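The change between 6 and 24 months of age was examined in the spinal cord of calorically restricted mice, from 15 of the 65 arrays of the series. The 15 arrays were chosen by the diet and age labels, as those of all mice on caloric restriction (CR) aged 174 to 194 days (8 mice) or 673 to 743 days (7 mice). Every mouse was C57BL/6, and total RNA of the spinal cord was labelled and hybridized to the B filter of the NIA mouse 17K cDNA array, a nylon membrane of spotted cDNA clones. One mouse gave 1 array. The CR mice received full feed for 13 weeks, then 90% and 75% of it for 1 week each, and 60% of it (a fortified feed) from then on. The 6-month group held 3 males and 5 females and the 24-month group 3 males and 4 females, and the 24-month males were all 673 days old whereas the females were 703 to 743 days old. Mice fed ad libitum (AL), 10 of 6 months and 10 of 24 months, were the reference for age without restriction. Each AL group held 5 males and 5 females. The young AL mice were 169 to 194 days old, the old AL males 714 to 743 and the old AL females 704 to 733. The old CR males were thus younger than the old AL males, so that diet and exact age cannot be told apart between them. Another 10 CR mice of 16 months (472 to 499 days, 5 of each sex) gave the point between. Ages differed between animals, so that every comparison was between separate mice and none followed a mouse over time.

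Caloric restriction without malnutrition lengthens the life of laboratory mice and lowers circulating insulin and growth factor signals, while raising the daily exposure to glucocorticoid hormones. In the spinal cord, as elsewhere in the nervous system, ageing is known for microglial activation, rising complement and lysosomal proteins, and slow loss of synapses and myelin. The question put to the data was which transcripts of the spinal cord changed with age in restricted animals. It was also asked whether these changes differed from those under AL feeding. Restriction began after the same period of full feed in all CR mice, so that older CR mice had also been restricted for longer. Age and length of restriction thus cannot be told apart among CR mice. The difference between diets of the change with age holds both as well, and in males also the unequal age of the old mice. Each value is a Z score, the distance of a feature from the average of the 8448 features on the same array, counted in SDs of that array. A difference of 0.3 is therefore 0.3 SDs of the array and not a fold, and a change shared by most transcripts is not visible. In whole tissue, fewer cells of a type and less RNA per cell cannot be told apart.

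Among the 15 arrays, those numbered 31 (a 6-month male) and 32 (a 6-month female) stood apart, with correlations of 0.932 and 0.906 to the median array, against 0.965 to 0.991 for the other 13. Array 33, an AL male of 6 months, stood apart as well (0.74). Array numbers 22 to 43 and 66 to 67 also differed from the rest, and are called the second run here although no label gives a run. Over the 62 arrays without 31 to 33, the first principal component (36% of the variance) spanned -11.4 to -2.07 in the first run and 8.59 to 19.4 in the second. The second run held 2 of the 8 CR mice of 6 months, which were arrays 31 and 32 themselves, and 3 of the 7 CR mice of 24 months. Each comparison was thus fitted over all arrays, without arrays 31 and 32, and with run as a covariate. That last fit left out arrays 31 to 33 and is called run-adjusted. Feature names come from clone annotation, and a feature stands for the clone spotted there. The tissue label could be checked on few markers, since Gfap, Mbp and Rbfox3 are not among the named features of this filter. Nefl, the neurofilament light chain of large axons, had a mean Z of 0.906 at 6 months and 1.04 at 24 months at feature 8738.

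Few transcripts passed the test. Of 8448 features, 2 rose from 6 to 24 months in CR mice (0.0237%) and none fell, at an adjusted p under 0.05 in limma with all 65 arrays. The risen features were Tbc1d8, a member of the TBC domain family that stimulates GTP hydrolysis by Rab proteins of vesicle traffic, and Ganab, the catalytic subunit of glucosidase II, which trims glucose from new glycoproteins in the endoplasmic reticulum. Without adjustment, 736 features (8.71%) had a p under 0.05, of which 188 were higher and 548 lower at 24 months. This excess of lower features was not kept without arrays 31 and 32, where 240 were higher and 260 lower. In the run-adjusted fit 4 features rose (0.0473%), namely Ganab and Tbc1d8 together with Hadha, the alpha subunit of the mitochondrial trifunctional protein of fatty acid oxidation, and Ctsd, the lysosomal aspartic protease cathepsin D. No feature fell in that fit either, and 1453 (17.2%) had an unadjusted p under 0.05, of which 825 were higher and 628 lower.

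Tbc1d8 (feature 11211) had a lowest Z score of -0.40, a median of -0.185 and a highest of -0.14 in the 6-month CR mice, and -0.06, 0.06 and 0.21 in those of 24 months. No mouse of one age overlapped the other. The lowest young mouse was not on array 31 or 32, though these stood low as well, at -0.37 and -0.33. The fitted difference was 0.306 ± 0.0565 (SE, limma adjusted p = 0.00944). Group means were -0.242 ± 0.106 (SD, n = 8) and 0.0529 ± 0.0979 (SD, n = 7); the fit weights the sexes equally, so that printed means do not subtract to the fitted difference exactly. Without arrays 31 and 32 the difference was 0.275 and no longer passed (adjusted p = 0.237), while without arrays 31 to 33 it was the same and passed (0.0222), array 33 being an AL array that enters only through the spread.

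Ganab (feature 12509) ranged from -0.69 through a median of -0.365 to -0.25 at 6 months, and from -0.18 through -0.09 to 0.00 at 24 months. Array 32 gave the lowest young value, and the ages did not overlap with or without it, since the other young mice reached -0.25 at most. The difference was 0.316 ± 0.0598 (SE, limma adjusted p = 0.00944), 0.267 without arrays 31 and 32 (0.237) and 0.290 run-adjusted (0.0112). Both calls were lost when any of 4 single male arrays was left out, namely 11 or 25 of 24 months and 31 or 50 of 6 months, with adjusted p between 0.0756 and 0.0876.

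Hadha (feature 12443) lay between -0.76 and -0.23 at 6 months (median -0.40) and between -0.13 and 0.04 at 24 months (median -0.01). The ages did not overlap, and the 2 lowest young values were those of arrays 31 and 32. Over all arrays the difference was 0.405 ± 0.121 (SE, limma adjusted p = 0.496). Without arrays 31 and 32 it was 0.317 and did not pass (0.7). Without arrays 31 to 33 it was the same and passed (0.0118), array 33 being a young AL mouse at -1.95. Run-adjusted it was 0.311 ± 0.0594 (SE, limma adjusted p = 0.013).

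Cathepsin D was represented by 2 clones. At feature 12575 the 8 young CR mice stood between -0.61 and 0.18 (median 0.03) and the 7 old ones between 0.24 and 0.49 (median 0.42), with no overlap. The difference was 0.435 ± 0.113 over all arrays (limma adjusted p = 0.374), 0.302 without arrays 31 and 32 (0.7) and 0.329 ± 0.0699 run-adjusted (0.042). That call held in 4 of the 13 run-adjusted fits that leave out 1 mouse, with adjusted p up to 0.219, against 11 of 13 for Hadha and Ganab and 9 for Tbc1d8. The second clone, feature 12531, ran from -0.60 to 0.25 in the young and from 0.23 to 0.46 in the old mice, so that the ages overlapped, with old mice at 0.23 and 0.24 and young mice at 0.24 and 0.25. Its difference was 0.394 over all arrays (limma adjusted p = 0.456), 0.225 without arrays 31 and 32 (0.7) and 0.224 run-adjusted (0.159). None of these passed.

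**Figure D1:**
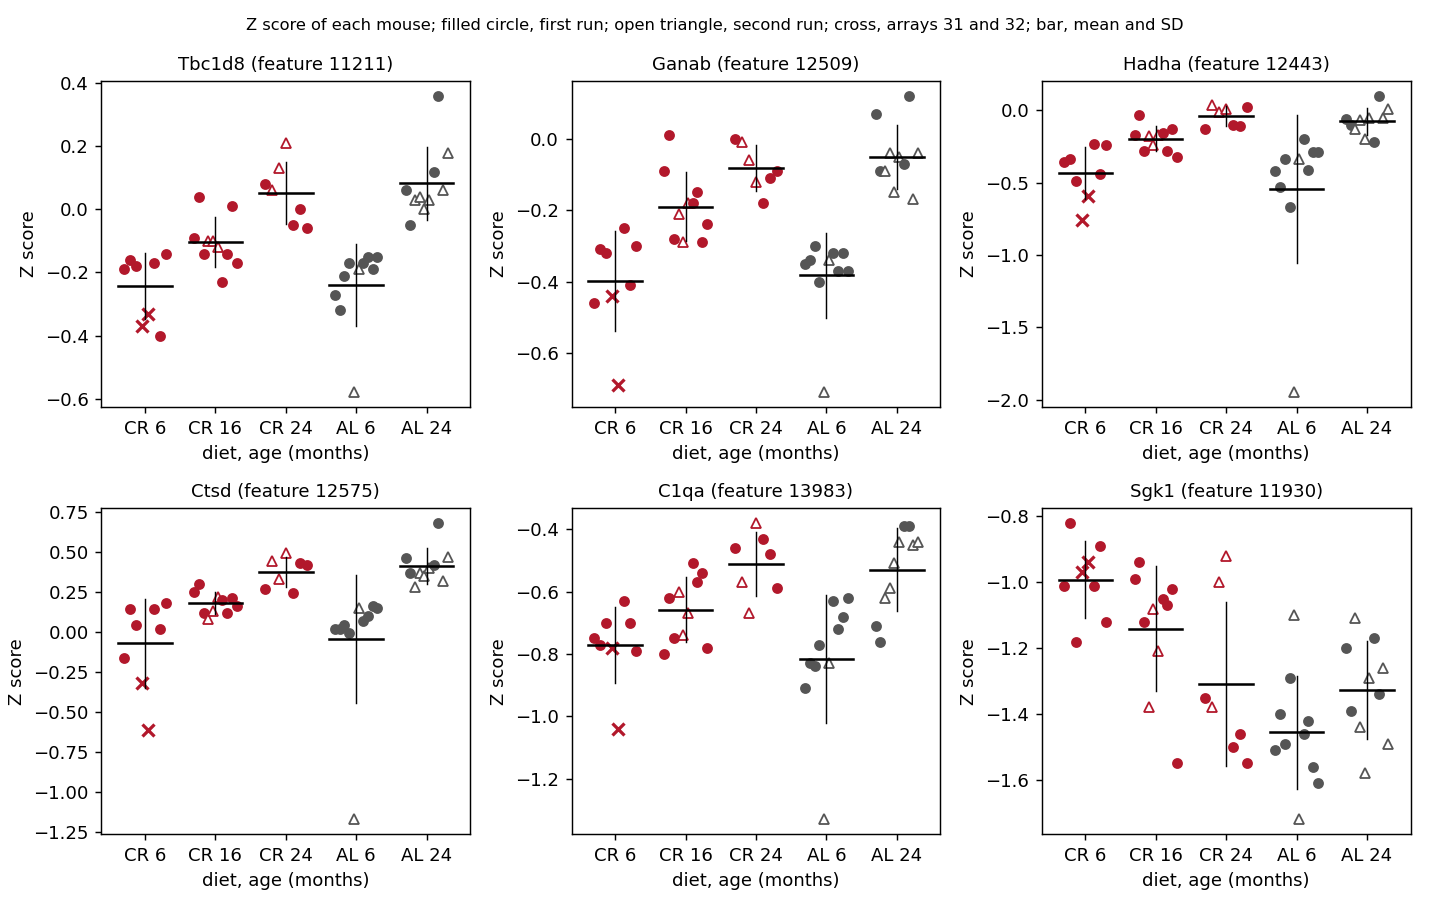
Z score (vertical axis) of every mouse at 6 features, by diet and age in months (horizontal axis), with the mean and SD of each group. Filled circles are arrays of the first run, open triangles those of the second run and crosses arrays 31 and 32; the 24-month CR mice lie above all 6-month CR mice at Tbc1d8, Ganab, Hadha and Ctsd, whereas at Sgk1 2 second-run females of 24 months lie among the young mice.

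The promoters of these 4 genes, the calls of the run-adjusted fit, are shown as the 250 bases before the annotated start, read from RefSeq on GRCm38.p6. Capitals mark 2 motifs searched on both strands, the E-box CACGTG (its own reverse complement, and part of the longer motif through which TFEB acts on lysosomal genes) and the GC box GGGCGG or its complement CCGCCC. The Ctsd window (chr7:142387828-142388077, minus strand) holds 2 E-boxes, the first bases of which lie 245 and 98 bases before the start, and 2 GC boxes. Those of Hadha (chr5:30154981-30155230, minus), Ganab (chr19:8897807-8898056, plus) and Tbc1d8 (chr1:39478756-39479005, minus, 1 of 2 annotated starts) each hold 1 GC box and no E-box. Of 32851 promoter windows of the same length, 6.02% hold the E-box and 32.7% the GC box. A match describes the letters of the window and is no binding site.
Ctsd: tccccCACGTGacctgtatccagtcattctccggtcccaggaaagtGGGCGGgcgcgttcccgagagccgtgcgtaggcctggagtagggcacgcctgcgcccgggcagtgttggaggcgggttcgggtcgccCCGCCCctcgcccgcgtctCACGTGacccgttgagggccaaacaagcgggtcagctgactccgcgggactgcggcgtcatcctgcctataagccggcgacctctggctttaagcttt
Hadha: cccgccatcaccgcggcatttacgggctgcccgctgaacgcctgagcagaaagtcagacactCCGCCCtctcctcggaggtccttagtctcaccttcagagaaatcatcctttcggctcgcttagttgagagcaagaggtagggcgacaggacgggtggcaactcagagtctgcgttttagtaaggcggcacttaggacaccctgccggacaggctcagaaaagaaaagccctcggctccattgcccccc
Ganab: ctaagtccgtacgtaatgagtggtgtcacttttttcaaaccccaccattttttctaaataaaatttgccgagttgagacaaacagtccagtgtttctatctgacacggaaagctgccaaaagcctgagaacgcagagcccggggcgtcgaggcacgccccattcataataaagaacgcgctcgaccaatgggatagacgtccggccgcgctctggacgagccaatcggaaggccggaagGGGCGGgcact
Tbc1d8: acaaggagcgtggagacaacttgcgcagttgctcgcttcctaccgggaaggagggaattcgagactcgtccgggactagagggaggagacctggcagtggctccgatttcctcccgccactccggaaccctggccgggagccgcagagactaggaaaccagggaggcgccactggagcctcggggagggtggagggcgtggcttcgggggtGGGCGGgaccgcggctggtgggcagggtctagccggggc

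Numa1, a spindle pole protein also known as a structural protein of the interphase nucleus, came next. Feature 12487 lay between -1.60 and -0.65 in young CR mice and between -0.70 and -0.45 in old ones, a difference of 0.399 ± 0.085 (SE, limma adjusted p = 0.0513). It was 0.271 without arrays 31 and 32 (0.633) and 0.283 run-adjusted (0.123). The other clones of Numa1 differed by less, by 0.0454 at feature 11935 and 0.0756 at feature 15748. Run-adjusted, feature 11935 stood at 0.0218 and feature 15748 at 0.194 (adjusted p = 0.176).

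The remaining higher genes of smallest p did not pass the test in any of the 3 fits. They included Cst3, the cysteine protease inhibitor cystatin C that is abundant in glia, with a difference of 0.449 (limma adjusted p = 0.464) and 0.269 run-adjusted. Its young values ran from -0.37 to 0.51 and its old ones from 0.56 to 0.80, without overlap, and arrays 31 and 32 gave the only young values below 0.31. C1qa, which encodes 1 of the chains of the complement starter C1q and is a microglial gene, ran from -1.04 to -0.63 at 6 months and from -0.67 to -0.38 at 24 months. Its difference was 0.258 (limma adjusted p = 0.459) and 0.230 run-adjusted (0.166). Grn, the lysosomal protein progranulin, differed by 0.257 (0.172 run-adjusted), and Chmp2a, an ESCRT-III subunit of membrane remodelling, by 0.246 (0.161 run-adjusted). For these last 2 genes array 32 was the lowest young mouse, at -1.41 and -0.96.

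On the lower side Sgk1, the serum and glucocorticoid regulated kinase, had the smallest p among named features. Its Z scores ran from -1.18 through a median of -0.99 to -0.82 in young CR mice, and from -1.55 through -1.38 to -0.92 in old ones. All lay below 0, the average feature of the array. The study kept only genes with an average intensity above 0, so that its rule would leave Sgk1 out. Over all arrays the difference was -0.349 ± 0.0834 (SE, limma adjusted p = 0.226), and arrays 31 and 32 moved it little (-0.354 without them). The 2 old mice that overlapped the young ones were the second-run females on arrays 26 and 39, at -1.0 and -0.92. Within the first run the 4 old mice spanned -1.55 to -1.35, all below the 6 young mice at -1.18 to -0.82. There Sgk1 was the only feature to pass, and it fell by 0.497 (SE 0.0864, limma adjusted p = 0.0201).

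Sgk1 differed between the diets in its mean at 6 months and hardly at 24 months. Single mice overlapped at 6 months, from -1.18 to -0.82 under CR and from -1.72 to -1.10 under AL. Its mean was -0.992 ± 0.117 (SD, n = 8) in young CR mice, against -1.46 ± 0.172 (SD, n = 10) in young AL mice. At 24 months the means were -1.31 ± 0.249 (SD, n = 7) under CR and -1.33 ± 0.150 (SD, n = 10) under AL. The difference between diets of the 6 to 24 month change was -0.478 ± 0.109 (limma adjusted p = 0.475), the smallest adjusted p of that comparison. Within the first run it was -0.69 and passed (adjusted p = 0.015). Run-adjusted it was -0.525 and did not (0.167).

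Stk35, a serine/threonine kinase of the nucleus, was the third of the lower genes by p, with a difference of -0.752 ± 0.226 (SE, limma adjusted p = 0.496). Young CR mice lay between -1.53 and -1.01, whereas the old males stood at -3.33, -2.11 and -1.68 and the old females at -2.02, -1.88, -1.01 and -0.99. The sexes thus overlapped at 24 months, and 2 old females lay at the level of the young mice. All these values lay below 0, where the study's rule on average intensity would leave Stk35 out too. In first-run males Stk35 fell by 1.61 (limma adjusted p = 0.00146), on 2 old and 2 young arrays, and there the difference between sexes of the change was -1.82 (adjusted p = 0.0249). Over all arrays that difference was -1.09 (unadjusted p = 0.0193) and did not pass.

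Further lower features of smallest p, none of which passed, were Zfp652 (a zinc finger repressor, -0.493), Arhgap29 (a GTPase activator, -0.324), Oaz2 (an antizyme that limits polyamine synthesis, -0.314) and Malt1 (the paracaspase of lymphocyte signaling, -0.301). Ufl1, the ligase for the ubiquitin-like modifier UFM1, differed by -0.299, Nudcd2 by -0.253, Ripply3 by -0.261 and the histone deacetylase Hdac2 by -0.229. All 8 stayed lower without arrays 31 and 32, at -0.419 to -0.186, and run-adjusted, at -0.416 to -0.160. Leading the lower side of the run-adjusted fit, besides Sgk1, were Foxp2 (a forkhead factor of neurons, -0.36), Tut1 (the U6 RNA uridylyltransferase, -0.328) and Trip12 (a HECT ubiquitin ligase, -0.302). Aak1, a kinase of clathrin adaptors, stood at -0.252 and Tbcb, a tubulin folding cofactor, at -0.249. On the higher side of that fit Mrpl20, a protein of the mitochondrial ribosome (0.191), Numa1, Cst3 and Mtmr10, a member of the myotubularin family (0.21), followed the 4 called genes by p. Adjusted p of these genes were 0.109 or more in limma. Other clones differed from the ones named for Arhgap29 (0.0842 and 0.0743), Ufl1 (0.0225), Nudcd2 (0.0147) and Hdac2 (0.0347).

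**Figure D2:**
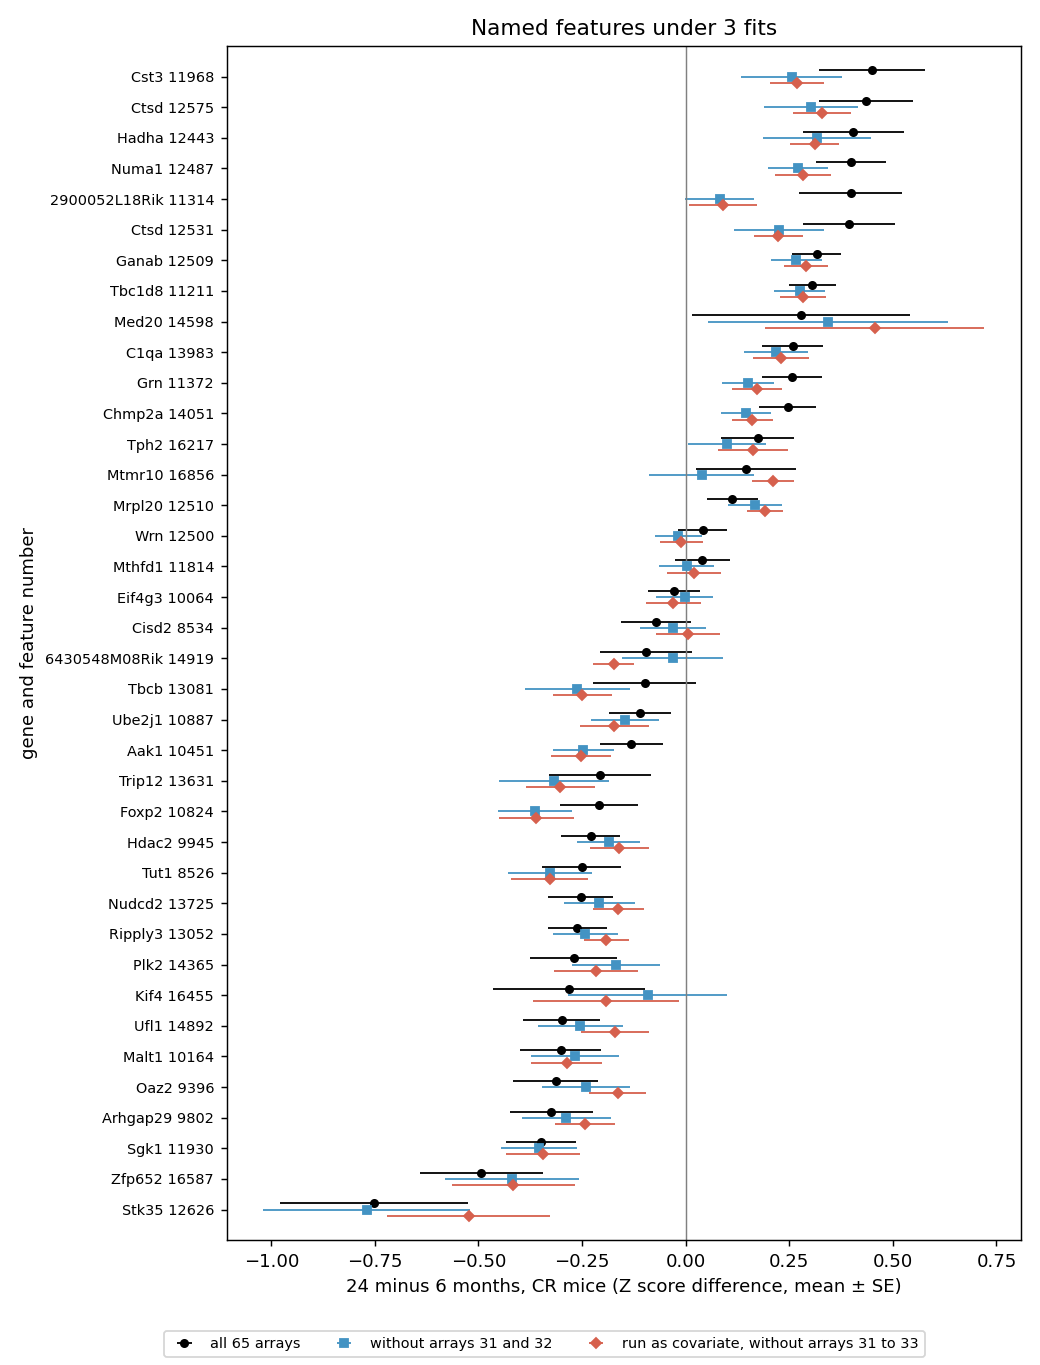
Difference of 24 minus 6 months in CR mice (horizontal axis, Z score, mean and SE) at the 38 named features (vertical axis), over all 65 arrays (circles), without arrays 31 and 32 (squares) and run-adjusted (diamonds). Tbc1d8 and Ganab keep nearly the same difference in the 3 fits, whereas 2900052L18Rik moves from 0.398 to 0.0821 without arrays 31 and 32.

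Over all 8448 features, 14 (0.166%) had no overlap between the 8 young and the 7 old CR mice. The 5 higher ones were Tbc1d8, Ganab, Hadha, Ctsd at feature 12575 and Cst3. The 9 lower ones comprised Arhgap29, Tulp3, Rab11b and 6 features without a single symbol. Tulp3, a carrier of receptors into cilia, spanned 1.16 to 1.41 at 6 months and 0.79 to 1.15 at 24 months. Rab11b, a GTPase of recycling endosomes, spanned 1.28 to 1.60 and 0.81 to 1.27. Neither passed in limma, with differences of -0.20 and -0.26.

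The CR mice of 16 months enter both the step from 6 to 16 and that from 16 to 24 months, so that the steps are given side by side only. No feature passed for 6 to 16 or 16 to 24 months in CR mice (583 and 436 had an unadjusted p under 0.05 in limma). Tbc1d8 had a mean of -0.104 ± 0.0796 (SD, n = 10) at 16 months, with steps of 0.152 and then 0.154. Ganab stood at -0.190 ± 0.0959 (SD, n = 10), with steps of 0.205 and 0.111. Hadha stood at -0.196 ± 0.0858 (SD, n = 10), with steps of 0.252 and 0.153, and Ctsd feature 12575 at 0.179 ± 0.0685 (SD, n = 10), with steps of 0.247 and 0.188. For these 4 features the middle-aged mean lay between those of the young and the old mice. Sgk1 was intermediate too, at -1.14 ± 0.190 (SD, n = 10).

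AL mice, measured on arrays of their own, gave 6 called features from 6 to 24 months (0.071%), all higher. They were Tbc1d8 (0.323), Ganab (0.331), Hadha (0.467), both clones of Ctsd (0.429 and 0.459) and C1qa (0.286). Without outlying array 33 Hadha stood at 0.303, the Ctsd clones at 0.299 and 0.335, and C1qa at 0.230 and uncalled (limma adjusted p = 0.148). Run-adjusted, 6 AL features were called as well. Among these Numa1 feature 12487 (0.258, limma adjusted p = 0.0305) took the place of C1qa (0.244, 0.0609). Array 27, a 24-month AL male by its title and its age and diet labels, has a description that names another mouse, and without it 3 features were called, Tbc1d8, Ganab and Ctsd feature 12575. Leaving out each of the 20 AL mice in turn gave 2 to 8 calls. Tbc1d8 and Ganab were called in all 20 of these fits, but Hadha in 8, the Ctsd clones in 10 and 7 and C1qa in 6. With arrays centred on the 22 recurring positions of the feature numbering, no AL feature was called (1073 had an unadjusted p under 0.05). Tbc1d8 and Ganab then had an adjusted p of 0.177. As deposited, these 2 genes rose under both diets, and their differences between diets were -0.017 ± 0.074 and -0.0148 ± 0.0783 (SE). No feature passed the test of the difference between diets, where 132 had an unadjusted p under 0.05 in limma. Hadha differed between the diets by -0.0622 ± 0.158 and Ctsd feature 12575 by -0.0242 ± 0.148, with errors about 2 times as wide as those of Tbc1d8 and Ganab. Run-adjusted, without arrays 31 to 33, Hadha differed by 0.0151 ± 0.0744 and Ctsd feature 12575 by -0.038 ± 0.0876. The errors of Tbc1d8 and Ganab were then 0.07 and 0.0663. Across all features the changes of the 2 diets correlated at r = 0.467 (Spearman 0.503) and had the same sign in 68.1%. With run adjusted and arrays 31 to 33 left out r was 0.19 and the share 56.8%. These are correlations across features, which are not independent, and in the first of them run was not balanced, since the second run held 2 of 10 young and 6 of 10 old AL mice.

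Besides Sgk1, the smallest p of the difference between diets fell on Plk2, a polo-like kinase induced by neuronal activity, at -0.512 ± 0.137. Its means were -1.42 at 6 months and -1.71 at 24 months under CR, against -1.92 and -1.68 under AL. Kif4, a chromosome-bound kinesin, differed by -0.686, Eif4g3, a scaffold of translation initiation, by -0.226, and Tph2, the serotonin-synthesizing hydroxylase of the brain, by 0.316. None passed in limma (adjusted p = 0.999). In young CR mice array 32 was the highest for both Plk2 (-0.85) and Kif4 (-1.22), and array 31 stood at -1.35 and -1.33. Without both arrays the 6 to 24 month differences in CR mice were -0.169 and -0.0917. Wrn, the RecQ helicase of Werner syndrome, ran from -0.18 to 0.28 in young and from 0.05 to 0.28 in old CR mice, a difference of 0.0409 ± 0.0582 that turned to -0.0179 without arrays 31 and 32.

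**Figure D3:**
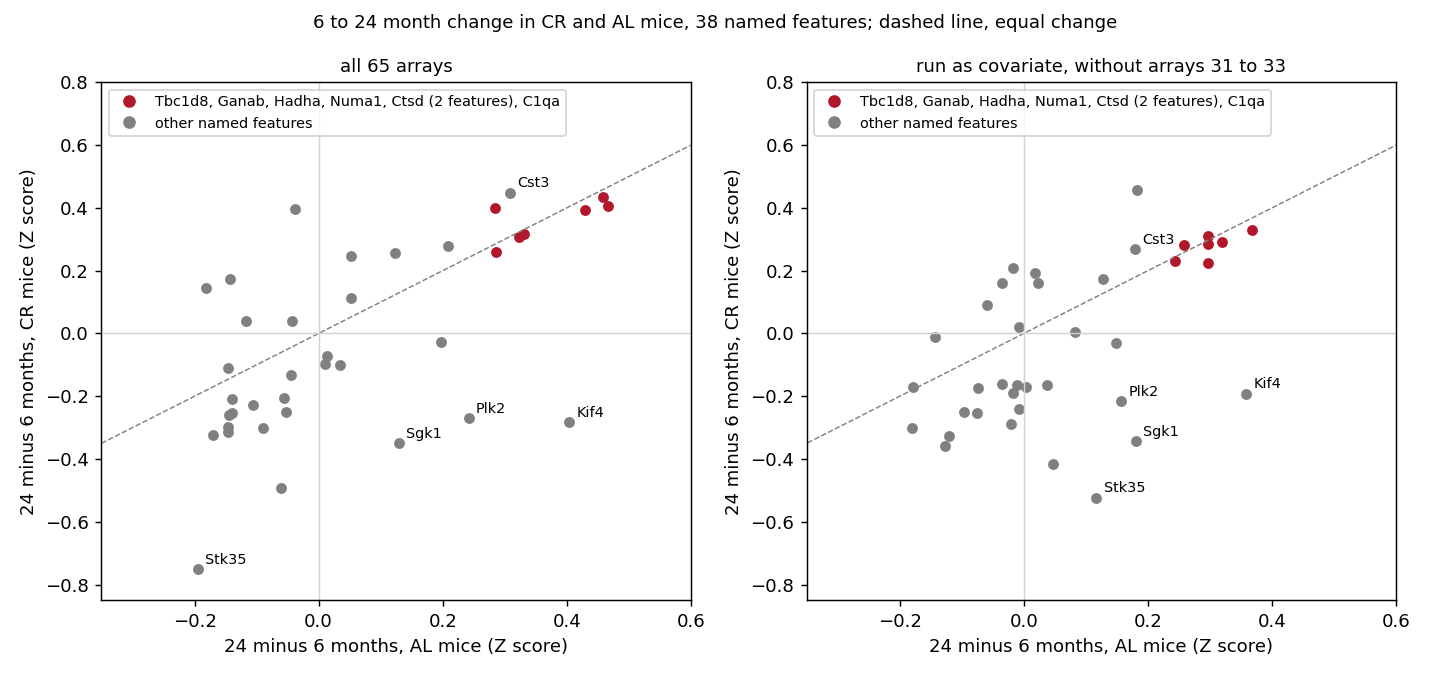
Change from 6 to 24 months in CR mice (vertical axis) against that in AL mice (horizontal axis), both in Z score, for the 38 named features over all arrays (left) and run-adjusted (right). The 7 red points, at 0.224 or more in CR mice and 0.244 or more in AL mice, lie near the dashed line of equal change, whereas Sgk1, Plk2 and Kif4 are lower with age under CR and higher under AL in both panels.

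Neither sex gave a called feature by itself, with 232 features in males and 314 in females at an unadjusted p under 0.05 in limma. The difference between the sexes of the change gave none (79 unadjusted). Tbc1d8 differed with age by 0.34 in males and 0.272 in females, Ganab by 0.323 and 0.309, Hadha by 0.45 and 0.359 and Ctsd feature 12575 by 0.37 and 0.50. The smallest p for unequal change belonged to Mthfd1, a folate enzyme, with 0.26 in males and -0.179 in females, and to Cisd2, an iron-sulfur protein of the endoplasmic reticulum and mitochondria, with -0.313 and 0.169. At both genes arrays 31 and 32 lay at opposite ends of the young mice (-1.83 and -1.02 for Mthfd1, -0.52 and -1.62 for Cisd2). Ube2j1, a ubiquitin-conjugating enzyme of the endoplasmic reticulum, had -0.313 and 0.0935, and Med20, a Mediator subunit, 0.963 and -0.405. Since the old males were younger than the old females, sex and exact age cannot be told apart in this comparison.

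The called features shared a place in the numbering of the features. Counting feature numbers in cycles of 22, all 4 run-adjusted calls in CR mice and all 6 calls in AL mice had position 13, which holds 384 of the 8448 features. Hadha, Numa1, Ganab and both Ctsd clones lie among 7 features at successive steps of 22 numbers (12443 to 12575). The other two of that stretch, Slc25a37 and Smchd1, differed by 0.0132 and 0.0643 run-adjusted. Tbc1d8 lies elsewhere, and its neighbours Dtd1 and Pgm1 at the same step differed by -0.0324 and 0.0773. The next features of higher number stood at 0.17 (Cenpq), 0.125, 0.118 (Gpat2) and 0.0956 run-adjusted. Those of lower number stood at 0.0888 (Senp2), -0.104 (Eif3b), -0.0799 and 0.0366. Position 13 as a whole had a median difference of 0.0512, and of 0.000429 run-adjusted.

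Features of the same position correlated, near or far, over the whole filter. The correlation of the CR difference between features 22 numbers apart was 0.301 (0.384 run-adjusted, 8426 pairs), and between features 528 numbers apart, also a multiple of 22, it was 0.277 (0.356, 7920 pairs), against 0.103 (0.191) for adjacent numbers. After groups and run were removed, the values of Tbc1d8, Hadha, Numa1, Ganab and both Ctsd clones correlated with one another over 62 arrays at 0.424 to 0.824 (median 0.563 over 15 pairs). Ctsd with Ctsd had 0.824 and Ctsd feature 12575 with Ganab 0.781, whereas the median pair of position 13 had 0.0265. Values of this size were not limited to these genes. Tbc1d8 correlated more with Rpl10a (0.594), Nono (0.588) and Rps10 (0.581), and with an unnamed feature (0.644), than with any of the other 5 (0.579 with Hadha), and Sgk1 reached 0.614 with an unnamed feature. Ganab correlated at -0.0384 with Slc25a37 and at 0.193 with Smchd1, its near neighbours on that stretch. These arrays share the filter layout and the array scaling. With each feature centred on its 4 neighbours at 22 and 44 numbers, and run adjusted, Hadha alone passed, at 0.269 (limma adjusted p = 0.015), and Ganab was at 0.249, Tbc1d8 at 0.227 and Ctsd feature 12575 at 0.182. Among the neighbours of Ganab were Numa1 feature 12487 and Ctsd feature 12531, and the latter was also among those of Ctsd feature 12575. Those of Hadha held Numa1 feature 12487. Centring can thus take out a rise that these clones share, and cannot tell it from the layout. The part of the layout in the calls was not tested beyond these values.

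**Figure D4:**
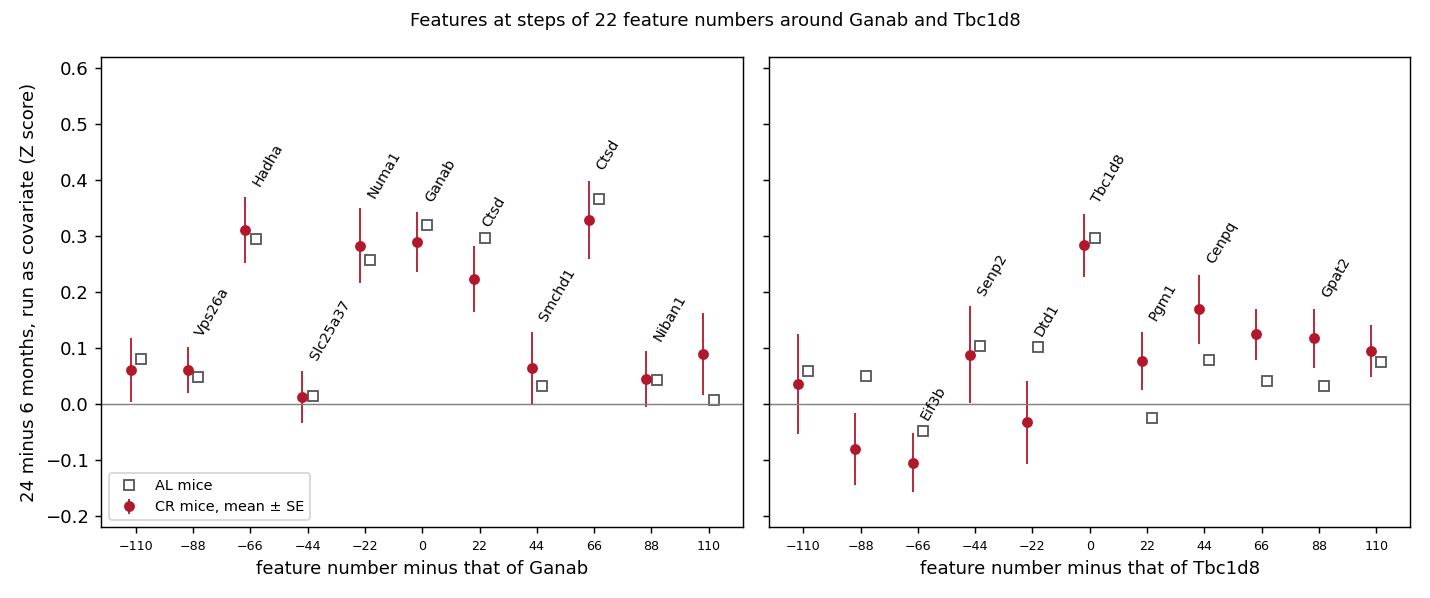
Run-adjusted difference of 24 minus 6 months (vertical axis, Z score) in CR mice (circles, mean and SE) and AL mice (squares) for features at steps of 22 numbers (horizontal axis, feature number minus that of the central gene) around Ganab (left) and Tbc1d8 (right); points without a name have no single symbol. Hadha, Numa1, Ganab and both Ctsd clones lie between 0.224 and 0.329 in CR mice, with Slc25a37 and Smchd1 between them at 0.0132 and 0.0643.

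The gene lists gave the wider view, each by the number of its genes higher at 24 months and its median difference. Beside them, 2742 of 4209 named genes were higher over all arrays, with a median of 0.0278 (0.00583 without arrays 31 and 32, 0.00871 run-adjusted). Of all 8448 features 57.9% were higher over all arrays, 49.3% without arrays 31 and 32 and 50.6% run-adjusted. Of 12 measured genes of microglia and macrophages 9 were higher, with a median of 0.0884, and 8 were higher without arrays 31 and 32 (0.0629), as were 8 run-adjusted (0.0467). Ctsd was the called member in the run-adjusted fit, and none was called over all arrays. C1qb (0.0956) and C1qc (0.0535), the other chains of C1q, the tetraspanin Cd63 (0.176), and the Fc receptors Fcgr1 (0.118) and Fcgr3 (0.0812) were higher without passing, while Cd74 (-0.0587), Axl (-0.0374) and Fcer1g (-0.0311) were lower. Among 7 complement genes 6 were higher (median 0.0131, 0.0404 run-adjusted), C1qa being the largest. The summed level of the microglial list, as the mean of its genes in a mouse, ran from -0.286 to 0.0129 at 6 months (-0.0696 to 0.0129 without arrays 31 and 32) and from -0.0292 to 0.0987 at 24 months, so that the ages overlapped.

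Lysosomal genes were higher in 22 of 25 cases over all arrays, with a median of 0.0568, but the median was -0.0175 without arrays 31 and 32 and -0.00211 run-adjusted. Besides Ctsd and Grn, the list held Lamp1 with 0.304 at feature 12823 and -0.0792 at feature 10730, and Psap, the precursor of the saposins, with 0.201 (0.0234 run-adjusted). Fatty acid oxidation genes were higher in 13 of 20 cases (median 0.0493, -0.0304 without arrays 31 and 32 and 0.0212 run-adjusted). Apart from Hadha, the list was mixed, with the thiolase Acaa2 at 0.175 and the carnitine transferase Cpt2 at 0.165, and the acyl-CoA enzymes Acadvl at -0.148 and Acox3 at -0.224, none of which passed. Chaperones and heat shock genes were higher in 22 of 31 cases (median 0.0303, 0.00461 run-adjusted) with Ganab as the called member, and the chaperone Hspa8 differed by 0.206 at feature 13741 (-0.0431 run-adjusted) and 0.049 at feature 10066.

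The medians of large complexes depended on arrays 31 and 32. Cytosolic ribosomal protein genes were higher at 24 months in 52 of 55 cases, with a median of 0.11, which was 0.0228 without the 2 arrays and 0.0282 run-adjusted (39 of 55 higher). The mean of the list ran from 0.0991 to 0.517 in young CR mice but from 0.394 to 0.517 without arrays 31 and 32, and from 0.425 to 0.527 in old ones. Oxidative phosphorylation genes were higher in 39 of 43 cases with a median of 0.0827, and run-adjusted in 22 of 43 with a median of 0.000179. Examples are the cytochrome oxidase subunits Cox5a (0.275 over all arrays and 0.0573 run-adjusted) and Cox6a1 (0.232 and 0.0279). No gene of either list was called in limma. Proteasome genes, at 10 of 15, had a median of 0.0518 (-3.57e-05 run-adjusted), and the genes of glycolysis and the TCA cycle, at 18 of 23, one of 0.057 (-0.00443).

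Neuronal markers were few. Of the 5 measured 4 were higher over all arrays (median 0.0735) but 2 run-adjusted (median -0.0591), and the means of the list spanned -0.455 to 0.319 in young CR mice (0.169 to 0.319 without arrays 31 and 32) and 0.0715 to 0.214 in old ones. The ubiquitin hydrolase Uchl1 differed by 0.229 over all arrays and by 0.0442 without the 2 arrays, and Nefl feature 8738 by 0.139 and -0.119. Genes of the synaptic vesicle cycle were lower in 6 of 10 cases, with a median of -0.0168 that became -0.105 both without arrays 31 and 32 and run-adjusted, where 8 of 10 were lower. The largest among these were Syt11, a synaptotagmin (-0.213), Rab3b, a GTPase of vesicle release (-0.148), and Ap2b1, a clathrin adaptor subunit (-0.116), none of which passed in limma.

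Of other cell types, astrocyte markers were higher in 8 of 10 cases (median 0.0702, -0.0073 run-adjusted), led by Cst3, with Vim at 0.0188 and the glutamate transporter Slc1a3 at 0.0803 and 0.0578 in its 2 clones. Oligodendrocyte and myelin markers were higher in 5 of 6 (median 0.0878, 0.00589 run-adjusted), endothelial and mural markers in 8 of 10 (0.0744, 0.0232) and meningeal and collagen genes in 20 of 27 (0.0339, 0.0189). Ependymal markers were higher in 2 of 5 (-0.0617, -0.0924), and blood genes in 8 of 12 (0.0363, 0.0428). Not one of these genes was called in either fit. Muscle, as an admixture at dissection, was represented by 5 genes with a median of -0.0297, and no lymphocyte gene of the list was measured. The part of cell composition in the called genes was not tested.

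Glucocorticoid response and clock genes, a list that holds Sgk1 and Plk2, were otherwise near the median of all genes, with 9 of 14 higher and a median of 0.041 (0.00146 without arrays 31 and 32). Fkbp5, a chaperone strongly induced by glucocorticoids, differed by -0.00583 in CR mice, and Nr3c1, the glucocorticoid receptor, by 0.183 (0.0502 run-adjusted). Genes of insulin and nutrient sensing were higher in 22 of 33 cases with a median of 0.0108, the same without arrays 31 and 32. Irs1, the insulin receptor substrate, differed by 0.12 and 0.192 run-adjusted, and Ulk2, a kinase that starts autophagy, by 0.132 and 0.089 in its 2 clones, while Prkab1, an AMPK subunit, differed by -0.154. The mitochondrial ribosome (17 of 24 higher, median 0.0604, 0.0309 run-adjusted), antioxidant genes (28 of 34, 0.0402, 0.027) and DNA repair genes (26 of 37, 0.0409, 0.0191) held no called gene. The same was so for cell cycle genes (42 of 59, 0.0379, 0.0144), ubiquitin conjugation (38 of 56, 0.0352, -0.00568), Wnt and Notch signaling (16 of 28, 0.0241, 0.0175), cholesterol and lipid synthesis (8 of 12, 0.0473, 0.0045) and antigen presentation (5 of 14, -0.0258, -0.00632). The markers of oligodendrocyte progenitors, Schwann cells and adipose tissue were measured for 2, 1 and 1 genes, with medians of -0.00654, 0.125 and 0.152. A list of the study's genes and earlier calls, chosen on these samples and no independent evidence, had 14 of 18 higher.

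**Figure D5:**
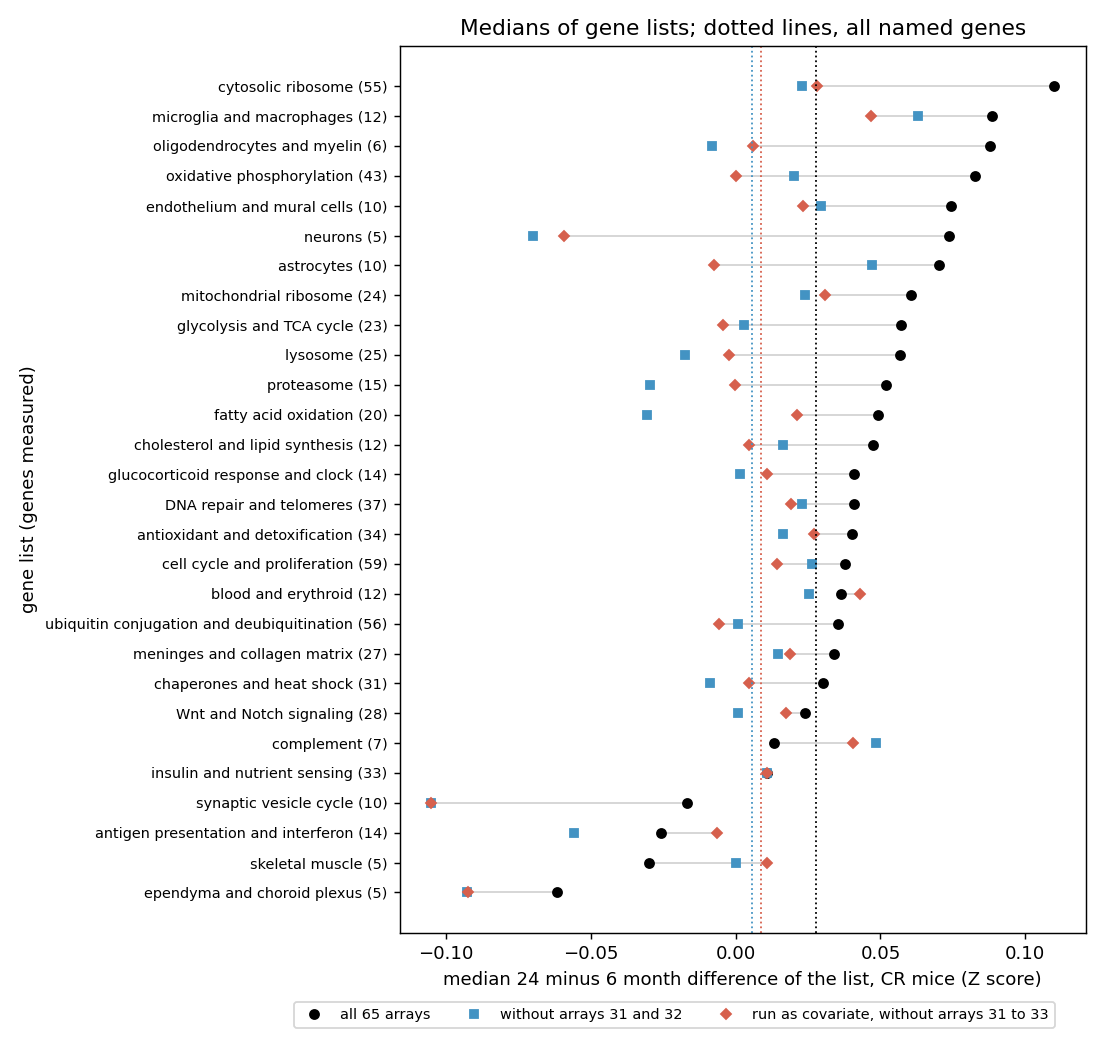
Median 24 minus 6 month difference in CR mice (horizontal axis, Z score) of each list with at least 5 measured genes (vertical axis, number measured in parentheses), over all 65 arrays (circles), without arrays 31 and 32 (squares) and run-adjusted (diamonds); dotted lines are the medians of all named genes. Cytosolic ribosome and oxidative phosphorylation move from 0.11 and 0.0827 to 0.0282 and 0.000179 run-adjusted, while microglia and macrophages go from 0.0884 to 0.0467.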

How the data were processed

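Spinal cord RNA of 65 mice was hybridized as radioactive cDNA to the B filter of the NIA mouse 17K array, 1 array for each mouse; the A filter and other mice were not analysed here. The deposited values are Z scores that the authors computed from log intensities within each array, so that they carry no fold and no depth; the log base and background step are not given in the sources used here. The number of arrays limits the precision.

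Groups were taken from the diet, age and sex labels. The Z scores, as deposited, were fitted in R 4.3.3 with limma 3.58.1 (lmFit and eBayes) as 14 group means over all 65 arrays (51 residual degrees of freedom, median residual SD 0.149), sexes weighted equally, with Benjamini-Hochberg adjustment over 8448 features and a threshold of 0.05. The fit was tried on simulated data with independent features and no run, outlying array or shared position. That simulation cannot show how the fit behaves where these are present. Of the features 4875 had 1 symbol, 224 several and 3349 none. Where a gene had several clones they were averaged in the lists. The members, gene lists and tests were chosen with earlier results of these data known. Named features were the 12 largest called in each direction, filled to 10 by smallest p, the 8 of smallest p in each direction with run adjusted, the 5 of smallest p for the differences between diets and between sexes, the called or otherwise the leading genes of each list described, and 8 genes called earlier or of interest to the study. Others named for lack of overlap or as list members were chosen after their values were seen.

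Alternatives were the omission of arrays 31 and 32, or 31 to 33, run as a covariate, each run alone, rounds of array numbers as a block, array weights, the omission of array 27, other scalings and centrings, only the 15 CR arrays, a filter on mean Z above 0, the study's selection rule without its variance step, and the omission of each mouse in turn. Centring on neighbouring features, combinations with run, the omission of each AL mouse, and several of these settings for the AL, diet and sex comparisons were added after seeing the data. Figures were drawn in Python 3.11.15 with matplotlib 3.10.9. Promoter sequences are from RefSeq (GRCm38.p6).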

Additional observations from a re-analysis of the deposited data

Results flagged for a closer look

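Among 76 groups of values, those of the 38 named features at each age under CR, 11 held a single mouse far from the others, where chance gives about 1 in 20. Of the 11, 8 were arrays 31 or 32. Array 32 gave the highest 6-month value of Oaz2 (1.78, the next being 1.41) and of Arhgap29 (1.34, next 1.07). It also gave the lowest 6-month value of Wrn (-0.18, next 0.09), C1qa (-1.04, next -0.79), Chmp2a (-0.96, next -0.61) and Mtmr10 (-1.13, next -0.77). Array 31 gave the lowest value of 2900052L18Rik (-2.54, next -1.11) and the highest of Mrpl20 (-0.01, next -0.21). At 24 months array 11, a male, gave the lowest Ube2j1 value (-1.46, next -0.79) and the highest Mrpl20 value (0.06, next -0.13), and array 26, a female, the lowest Med20 value (-4.19, next -2.31).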

How the results depend on the processing

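Of 1266 values of the 38 named features under the alternatives, 1181 kept their direction and side of the threshold. Another 22 lost a call, 39 gained one and 24 changed sign. Only Tbc1d8 and Ganab were called over all arrays, so that all 22 losses fell on these genes. Most of the 1181 belong to features that were uncalled and stayed so. The count of 2 called features in CR mice became 0 without arrays 31 and 32 (500 had an unadjusted p under 0.05 in limma). It also became 0 with only the 15 CR arrays (653) and with centring on 22 feature positions (743). The filter on mean Z above 0 drops Tbc1d8, Ganab, Hadha and C1qa before any test, so that none of them could be called there under either diet. With that filter the count in CR mice was 0 (418). It was 4 run-adjusted, 1 in the first run, 1 with array weights (a fit that did not fully converge), 284 by the study's selection rule (10 higher), and 3089 in the second run, where arrays 31 and 32 are the only young CR mice. With neighbours centred and run adjusted it was 1, and with positions centred and run adjusted 4. Leaving out each mouse gave 0 to 4, and 0 to 45 in the run-adjusted fit, 45 being without array 49 and 0 without array 25 or 50. With rounds of array numbers as a block it stayed at 2. The count of 6 in AL mice became 1829 with array weights, 1 at mean Z above 0, 3 without array 27, whose description disagrees with its other labels, 0 with centring on positions, 3 in the first run and 4784 in the second, and it was 7 (1 lower) with rounds as a block. Leaving out each AL mouse gave 2 to 8, and 2 without array 6, 20, 40, 41, 46, 54, 55, 66 or 67. The differences between diets and between sexes, with no call over all arrays, had 1 call each in the first run, and 1927 and 81 in the second. The causes were not tested.

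Signs changed for Cisd2 (0.00561 run-adjusted, 0.00875 in the first run, 0.061 with neighbours centred, 0.113 and 0.0119 with neighbours or positions centred and run adjusted, and -0.137 to 0.0178 with each mouse left out, positive without array 31), for Mthfd1 (-0.0042 with sex as a covariate, -0.0342 with array weights, -0.0748 and -0.002 with neighbours or positions centred and run adjusted, -0.0245 to 0.11 with each mouse left out, negative without array 31), and for Wrn (-0.0179 without arrays 31 and 32 and without 31 to 33, -0.0104 run-adjusted, -0.0375 in the first run). 6430548M08Rik was at 0.0162 with array weights and 0.00246 with neighbours centred. In the second run alone Aak1 was at 0.23, Foxp2 at 0.207, Ube2j1 at 0.0675, Mrpl20 at -0.0525, Tbcb at 0.318 and Med20 at -0.245. With each mouse left out Ube2j1 was at -0.184 to 0.0109, positive without array 11. No paired analysis was possible because replicate numbers were given in accession order and pair no mice.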
